A study of Mus musculus with 12 samples.

Results

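The miR-15/16 family and its relatives miR-322 and miR-503 were followed through 12 small-RNA libraries of mouse embryonic stem (ES) cells. The 6 genes are Mir15a, Mir16-1, Mir15b, Mir16-2, Mir322 and Mir503, taken by name from the 2202 miRNA genes of the GENCODE vM21 annotation. A read was counted for a gene when its whole sequence, of at least 18 nt, matched the sense strand of the hairpin exactly. Levels are counts per 1000000 reads of the library (CPM). Mir16-1 and Mir16-2 make the same 5p strand, so reads that matched both hairpins were kept as a merged feature, which gave 7 features for the 6 genes.

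Of the 12 libraries, 8 were made by circularization, a cloning method that takes RNA whatever its 5' end carries. They come in 4 groups of 2: FLAG immunoprecipitates (IP) of the line TT-FHAgo2 (tagged IP), FLAG IP of the line TT-Ago2 (untagged IP), and RNA taken without antibody from TT-FHAgo2 (tagged input) and TT-Ago2 (untagged input). Both are clonal lines kept in 0.1 µg/mL doxycycline, and these 8 libraries are from cells given 2.5 µg/mL, the dose that the labels tie to wild-type amounts of Ago2. The other 4 libraries were made with a ligation kit that needs a 5' phosphate, 1 library each: TT-FHAgo2 at 2.5 µg/mL doxycycline (dox), TT-FHAgo2 without doxycycline (no dox), Dicer null cells without doxycycline (Dicer-null) and wildtype cells without doxycycline. The design text speaks of ES cells that lack Ago proteins, and the no-dox library is read here as theirs. Replicates 1 and 2 of a group stand for the 2 codes in the titles. The labels do not say that these were separate cultures, so p-values measure the spread between such libraries, which may be technical.

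In the textbook pathway, Drosha cuts a hairpin out of the primary transcript, Dicer removes the loop, and an Argonaute protein keeps one strand of the remaining duplex. Bases 2 to 8 of the retained strand, the seed, pair with target mRNAs. The miR-15/16 genes are known for restraining cell-cycle and survival genes such as Bcl2, and in human the MIR15A and MIR16-1 pair is lost in many chronic lymphocytic leukaemias. Mir322 and Mir503 are known from differentiating muscle, where they slow the cell cycle.

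The genes form 3 clusters (GRCm38). Mir15a (chromosome 14, 61632027 to 61632110, minus strand) lies 54 nt from Mir16-1 (61631880 to 61631972) in the non-coding gene Dleu2, Mir15a in an intron and Mir16-1 overlapping an exon. Mir15b (chromosome 3, 69009772 to 69009835, plus strand) lies 66 nt from Mir16-2 (69009902 to 69009996) in an intron of the condensin gene Smc4. Mir322 (chromosome X, 53054255 to 53054349, minus strand) lies 200 nt from Mir503 (53053984 to 53054054), with no annotated host gene.

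The mature strands of all 6 genes matched entries in RefSeq (GRCm38.p6). They are shown 5' to 3' with the seed in capitals, because the results turn on which strand was found and on its ends.
miR-15a-5p: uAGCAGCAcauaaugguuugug
miR-15b-5p: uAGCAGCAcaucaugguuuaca
miR-16-5p: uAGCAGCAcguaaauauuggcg
miR-322-5p: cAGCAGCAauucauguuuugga
miR-503-5p: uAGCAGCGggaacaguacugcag
miR-15a-3p: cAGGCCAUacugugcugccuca
miR-15b-3p: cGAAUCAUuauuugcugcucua
miR-16-1-3p: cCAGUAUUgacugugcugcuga
miR-16-2-3p: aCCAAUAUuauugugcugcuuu
miR-322-3p: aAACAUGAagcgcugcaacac
miR-503-3p: gAGUAUUGuuuccacugccugg

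The 5p strands of Mir15a, Mir15b, Mir16-1, Mir16-2 and Mir322 share the seed AGCAGCA, and miR-503-5p carries AGCAGCG. Counted from 1 at the 5' end and read from miR-16-5p, miR-322-5p differs in the first base (U1C) and miR-503-5p in the last base of the seed (A8G). Aligned without gaps, miR-15a-5p shares 16 of the 22 bases of miR-16-5p, miR-15b-5p 14, and miR-322-5p and miR-503-5p 12 each. The 3p strands carry 6 different seeds.

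Libraries held 14474875 to 30098249 reads by circularization and 26542602 to 78762632 by ligation. miRNA hairpins took 58.3 and 50.7% of reads with the tagged IP, 9.19 and 13.1% with the untagged IP, 3.07 and 1.81% with the tagged input and 3.32 and 3.36% with the untagged input. By ligation that share was 10.3% with dox, 1.30% without dox, 1.42% in Dicer-null and 21.1% in wildtype cells. As a check of the cell type, the 14 hairpins of the Mir290 and Mir302 clusters, which mark ES cells, made up 42.6 to 55.4% of hairpin reads by circularization, 19.5% with dox, 2.66% without dox, 1.499% in Dicer-null and 22.2% in wildtype cells. The fibroblast list reached at most 0.165%, the neural list 0.154% and the blood list 1.34% in any library. All these markers are miRNAs, which in the textbook pathway need Dicer and Argonaute. Without dox and in Dicer-null their shares therefore cannot check the cell type. In bulk RNA fewer cells of a type and less RNA per cell cannot be told apart.

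Counting reads of any length, miR-16-5p was the most abundant family strand in every library except no dox, where miR-16-1-3p was. In Dicer-null most of these reads were longer than the mature strand. Of those from the annotated start 28.6% were 25 nt, 40.6% were 26 nt and 0.521% were 22 nt. miR-16-5p held 5591 and 5716 CPM with the tagged IP, 761.9 and 835 CPM with the untagged IP, 197 and 87.6 CPM with the tagged input and 205 and 48.5 CPM with the untagged input. The tagged IP stood above the untagged IP and both above the inputs, while the inputs of the 2 lines overlapped.

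miR-15b-5p, which shares its host gene with miR-16-2, held 1445 and 1878 CPM with the tagged IP, 196 and 251 CPM with the untagged IP, 45.0 and 10.8 CPM with the tagged input and 45.1 and 7.12 CPM with the untagged input. miR-15a-5p, the partner of miR-16-1, held 787 and 569 CPM with the tagged IP, 123 and 93.5 CPM with the untagged IP, 28.4 and 10.98 CPM with the tagged input and 25.4 and 18.2 CPM with the untagged input. No IP library overlapped an input library for these strands, and replicate 2 was the lower of each pair of inputs.

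The X-linked pair was far less abundant. miR-322-5p held 51.5 and 43.5 CPM with the tagged IP, 7.96 and 6.80 CPM with the untagged IP, 1.87 and 0.915 CPM with the tagged input and 2.22 and 1.31 CPM with the untagged input. miR-503-5p held 13.9 and 9.87 CPM with the tagged IP, 2.03 and 1.54 CPM with the untagged IP, 0.468 and 0.269 CPM with the tagged input and 0.840 and 0.414 CPM with the untagged input. With the tagged input miR-503-5p rested on 7 and 5 reads.

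Averaged over the tagged IP, miR-16-5p stood at 5653 ± 88.5 CPM (SD, n = 2 here and below), miR-15b-5p at 1661 ± 306 CPM, miR-15a-5p at 678 ± 154 CPM, miR-322-5p at 47.5 ± 5.69 CPM and miR-503-5p at 11.9 ± 2.88 CPM. Neighbours in this order did not overlap, and the untagged IP kept the order, at 798 ± 51.5, 224 ± 38.8, 108.5 ± 21.1, 7.38 ± 0.819 and 1.78 ± 0.351 CPM. Among the inputs miR-15b-5p and miR-15a-5p overlapped, at 27.9 ± 24.2 and 19.7 ± 12.3 CPM with the tagged input. The strands are 22 or 23 nt long, so CPM needs no length correction, but how well each sequence is cloned was not measured.

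**Figure D1:**
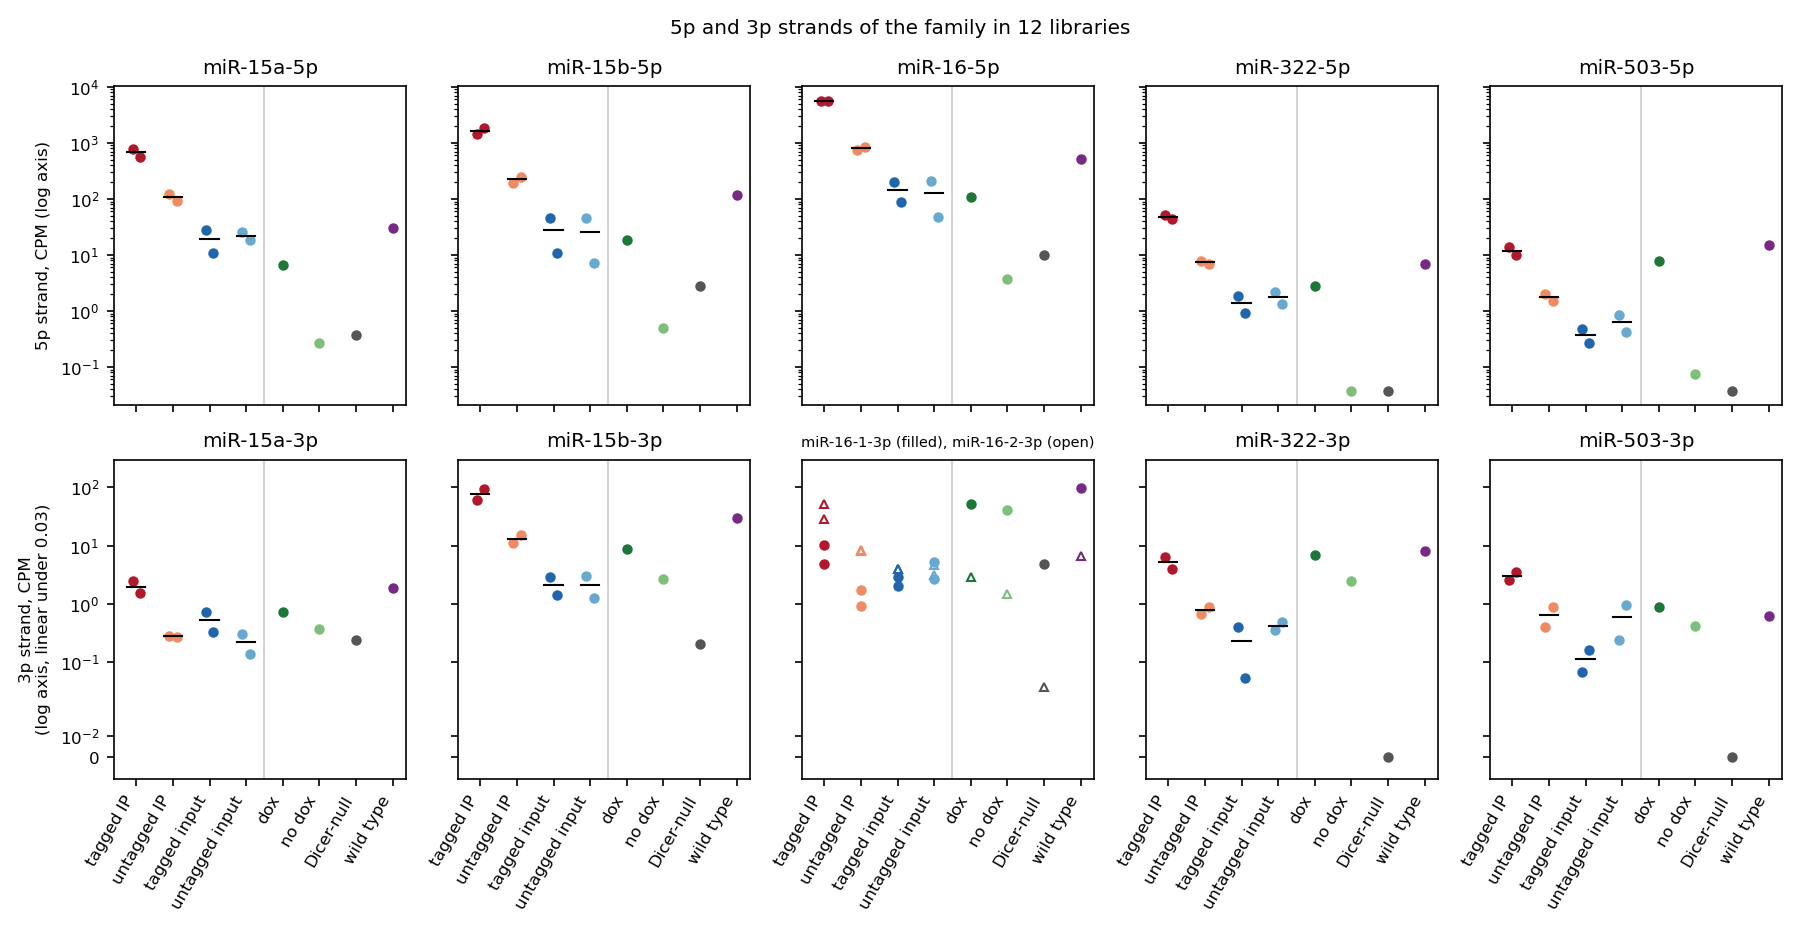
CPM of the 5p strands (top) and 3p strands (bottom) on log axes in the 12 libraries; points are libraries and bars the means of 2. Among the 8 circularization libraries the 5p strands are highest with the tagged IP. Among the 4 ligation libraries miR-16-1-3p stands at 52.3 CPM with dox, 40.4 CPM without dox and 96.4 CPM in wildtype cells. Many Dicer-null reads of miR-16-5p and miR-15b-5p are longer than the mature strand.

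The tagged IP against the untagged IP asks what the FLAG antibody brings down through the tag. All 7 features were higher with the tagged IP (edgeR quasi-likelihood test, Benjamini-Hochberg adjusted p at or below 0.05), against 78.2% of the 698 hairpins tested. Mir15b had the largest log2 fold change of the family, 2.87 ± 0.80 (SE, edgeR adjusted p = 0.0046), and Mir16-2 the smallest, 2.52 ± 0.64 (adjusted p = 0.00385). The median over all hairpins was 2.42, so the family moved with the bulk of miRNAs.

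The tagged IP against its own input asks what the IP enriches from the RNA of the same cells. All 7 features were higher with the tagged IP, against 83.4% of hairpins and a median log2 fold change of 4.86. Mir15b rose by 5.86 ± 0.92 on the log2 scale (edgeR adjusted p = 1.39e-05), the merged miR-16 feature by 5.33 ± 0.77 (adjusted p = 9.15e-06) and Mir503 by 4.94 ± 0.73 (adjusted p = 9.99e-06). Mir16-2 rose least, by 3.99 ± 0.69 (adjusted p = 3.18e-05).

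Ago2 of the line TT-Ago2 carries no tag by its label, yet its FLAG IP also held more of the family than its input. Of the 7 features 6 were higher with the untagged IP, against 49.0% of hairpins and a median log2 fold change of 1.91. Mir15b rose by 3.07 ± 0.80 (edgeR adjusted p = 0.0119) and Mir16-2 by 1.65 ± 0.63 (adjusted p = 0.0377), while Mir503 had 0.97 ± 0.63 (adjusted p = 0.187). Without replicate 2 of the untagged input none of the 7 was called (Mir15b 2.30, edgeR adjusted p = 0.0965) and 13 hairpins were called in all, and without replicate 2 of the untagged IP 84 hairpins and 3 features were. Some features also lost their calls without replicate 1 of the untagged IP, replicate 1 of the untagged input or either tagged IP library. Over all such fits the log2 fold change ranged from 2.3 to 4.82 for Mir15b and from 1.26 to 2.07 for Mir16-2.

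No feature was called between the tagged input and the untagged input, where 0% of hairpins were called by edgeR, 23 had an unadjusted p under 0.05, and DESeq2 called 0. Log2 fold changes of the family ran from -1.34 ± 0.69 for Mir503 to 0.18 ± 0.62 for Mir16-2.

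The difference between the 2 gains over input was tested directly. All 7 features had the larger gain in the tagged line, against 55.2% of hairpins and a median difference of 2.84 on the log2 scale. Mir503 had the largest difference of the family, 3.97 ± 0.93 (edgeR adjusted p = 0.017), then Mir322 with 3.13 ± 0.93 (adjusted p = 0.0181), and Mir16-2 the smallest, 2.34 ± 0.88 (adjusted p = 0.0315). No hairpin was called by edgeR without replicate 1 or 2 of the tagged IP or replicate 2 of the tagged input (399, 383 and 401 had an unadjusted p under 0.05), and 1 of the 7 features was called without replicate 1 of the untagged IP or of the untagged input, with 89 and 155 hairpins in all. Without replicate 1 of the untagged input the difference was 1.03 for Mir15b (edgeR adjusted p = 0.468) and 1.31 for the merged feature (adjusted p = 0.292).

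These calls rest on scaling to all reads of a library. With TMM factors, which take most hairpins as unchanged, the median log2 fold change was 0.08 between the IPs and 0.34 between tagged IP and tagged input, and none of the 7 features was called in any of the 5 contrasts, nor with DESeq2 or with scaling to hairpin reads. Calls between the IPs were 546 higher and 57 lower with library totals, and 1 higher and 98 lower with TMM. Against the tagged input they were 582 higher and 57 lower, and 37 higher and 120 lower with TMM. For the untagged IP against its input they were 342 higher and 17 lower, and 3 higher and 53 lower with TMM. For the difference of the gains they were 385 higher and 31 lower, and 0 higher and 77 lower with TMM.

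The strands told the members apart more than the hairpin totals did. Between the IPs, all 13 arm features of the family were higher with the tagged IP, against 79.1% of the 941 arms tested, from 2.25 for miR-503-3p to 2.89 for miR-15b-5p around a median log2 fold change of 2.43. Family arms lost their calls there without replicate 1 of the untagged IP or without either tagged IP library, fits that leave 1 library in a group. Leaving out each library in turn, the log2 fold change ranged from 2.69 to 3.08 for miR-15b-5p and from 1.80 to 2.93 for miR-503-3p. Between tagged IP and tagged input all 13 were again higher, against 84.2% of arms and a median of 4.75. The 5p features rose by 5 to 5.90 on the log2 scale, and miR-15b-3p, miR-503-3p and miR-322-3p by 5.16, 4.62 and 4.53.

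The other 3p strands gained less. miR-16-1-3p rose by 1.56 ± 0.67 (edgeR adjusted p = 0.0371), miR-15a-3p by 1.90 ± 0.74 (adjusted p = 0.0226) and miR-16-2-3p by 3.33 ± 0.67 (adjusted p = 0.000263). Scaled to hairpin reads, miR-16-1-3p fell by 2.90 (edgeR adjusted p = 0.00358) and miR-15a-3p fell by 2.55 (adjusted p = 0.0114) with the tagged IP, and none of the other family arms tested was called in that scaling. miR-15a-3p lost its call with library totals without replicate 1 of the tagged IP (1.53, edgeR adjusted p = 0.189), without its replicate 2 (2.20, adjusted p = 0.0523) or without replicate 2 of the tagged input (1.41, adjusted p = 0.156). miR-16-1-3p lost it without replicate 2 of the tagged IP (0.89, edgeR adjusted p = 0.353) or of the tagged input (1.29, adjusted p = 0.139).

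Part of the input reads of miR-15a-3p were longer than the mature strand. Of the 11 and 6 miR-15a-3p reads of the tagged input, 81.8 and 50% were 25 nt or longer, against 7.5 and 0% of 40 and 46 reads of the tagged IP. Counting reads of 20 to 24 nt alone, miR-15a-3p rose by 3.60 on the log2 scale (edgeR adjusted p = 0.000294), against 1.90 with all lengths.

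**Figure D2:**
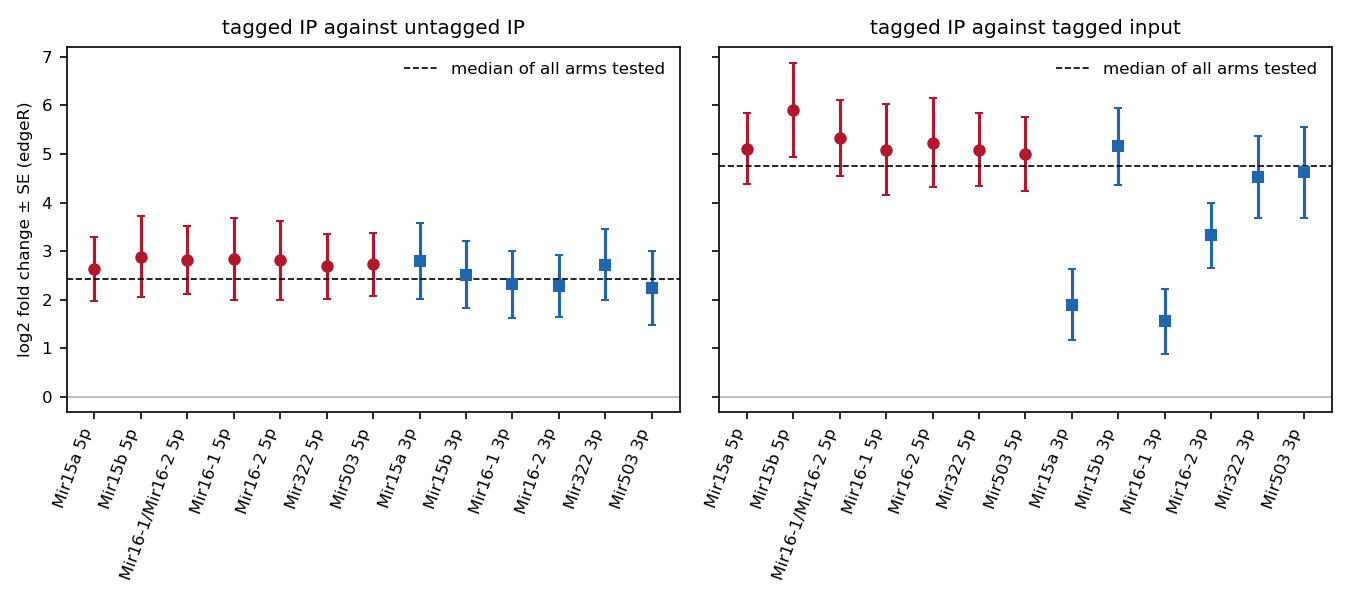
log2 fold change of each family arm (edgeR, bars ± SE) for tagged IP against untagged IP and for tagged IP against tagged input; circles are 5p arms, squares 3p arms, and the dashed line is the median of all arms tested. Against input miR-16-1-3p at 1.56, miR-15a-3p at 1.90 and miR-16-2-3p at 3.33 sit below the median of 4.75.

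In CPM, miR-16-1-3p held 4.75 and 10.1 with the tagged IP, 0.903 and 1.70 with the untagged IP, 2.94 and 1.99 with the tagged input and 2.64 and 5.25 with the untagged input. The untagged IP thus lay below all 4 inputs. miR-16-2-3p held 51.5 and 28.7 CPM with the tagged IP, 8.41 and 8.12 CPM with the untagged IP, 3.94 and 4.04 CPM with the tagged input and 4.68 and 3.11 CPM with the untagged input, so both IPs lay above the inputs. Of the miR-16-1-3p reads 38.5 and 51.5% with the tagged IP began 1 base before the annotated start, and 27.3 and 40.5% with the tagged input.

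The 3p share of a hairpin's reads was lower with the tagged IP for the miR-15/16 genes. For Mir15a it was 0.308 and 0.268% with the tagged IP, against 2.53 and 2.86% with the tagged input. For Mir15b it was 4.002 and 4.67%, against 6.01 and 11.5%. For Mir16-1 and Mir16-2 together it was 0.997 and 0.674%, against 3.37 and 6.44%. None of these groups overlapped, each with an exact two-sided permutation p of 0.333, the smallest that 2 against 2 libraries allow (adjusted p = 1 over 60 tests). For Mir15a the difference between the means was -0.698 percentage points with reads of 20 to 24 nt alone, against -2.4 with all lengths. For Mir322 (11.1 and 8.27% with the tagged IP, 17.6 and 5.56% with the tagged input) and Mir503 (15.5 and 26.5%, against 12.5 and 37.5%) the groups overlapped.

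**Figure D3:**
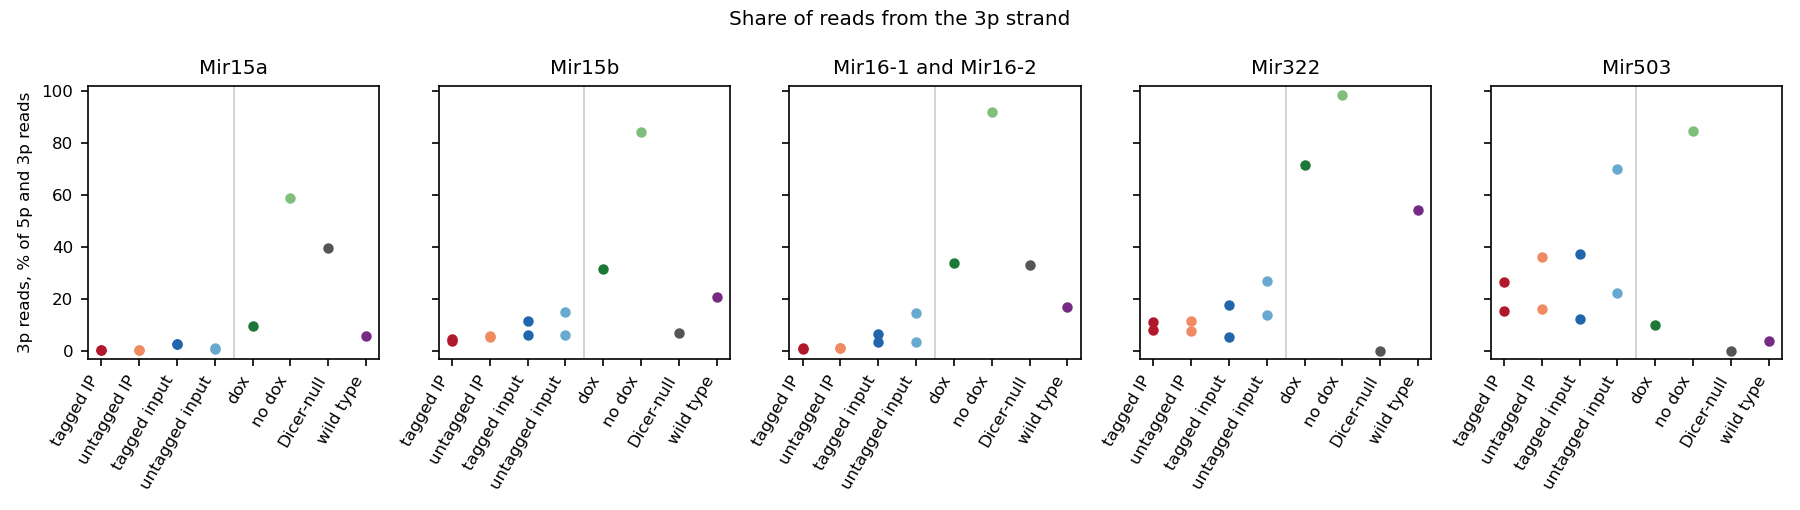
3p reads as percent of the 5p and 3p reads of each hairpin, 1 point per library. In every panel the no-dox library is the highest, from 58.8% for Mir15a to 98.5% for Mir322; the Dicer-null points of Mir322 and Mir503 rest on 3 reads each.

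Among the 5p strands, the log2 ratio of miR-15b-5p to miR-15a-5p was 0.88 and 1.72 with the tagged IP, against 0.67 and -0.03 with the tagged input. The log2 ratio of miR-16-5p to miR-15b-5p was 1.95 and 1.61 with the tagged IP, against 2.13 and 3.02 with the tagged input. Neither pair of groups overlapped (exact permutation p = 0.333, adjusted p = 1). The log2 ratio of miR-322-5p to miR-503-5p lay between 1.37 and 2.14 in all 8 circularization libraries.

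Reads that matched only one of Mir16-1 and Mir16-2 came in part from the 3' end of miR-16-5p, where the hairpins first differ at base 24 from the annotated start. That base is in capitals.
Mir16-1: tagcagcacgtaaatattggcgtT
Mir16-2: tagcagcacgtaaatattggcgtA
The Mir16-1 form had 1315 and 1545 reads with the tagged IP, 79 and 216 with the untagged IP, 74 and 37 with the tagged input, 68 and 10 with the untagged input, 18 with dox, 1 without dox, 20 in Dicer-null and 74 in wildtype cells. The Mir16-2 form had 123 and 145 reads with the tagged IP, 11 and 27 with the untagged IP, 5 and 4 with the tagged input, 5 and 1 with the untagged input, 5 with dox, 1 without dox, 6 in Dicer-null and 37 in wildtype cells. The Mir16-1 form was the more frequent in 11 libraries and equal without dox. A T or an A added to the 3' end would give the same letters, so gene and addition cannot be told apart.

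Other reads counted for Mir16-1 alone begin 1 base early, with a T that its hairpin has at that place. The same T stands before miR-15b-5p, where the Mir15b hairpin has another base. It is in capitals.
Mir16-1: Ttagcagcacgtaaatattggcg
Mir15b: Ttagcagcacatcatggtttaca
A T stood before the start of 3.26 and 5.56% of miR-16-5p reads with the tagged IP, 1.89 and 6.70% with the untagged IP, 2.70 and 6.43% with the tagged input and 3.77 and 1.71% with the untagged input. For miR-15b-5p the shares were 2.61 and 4.75% with the tagged IP, 1.53 and 5.88% with the untagged IP, 2.46 and 5.66% with the tagged input and 2.84 and 1.91% with the untagged input. By ligation the share was 0% for miR-15b-5p and at most 0.00609% for miR-16-5p. Reads that begin 1 base early made up 67.2 and 81.5% of the 5p reads of Mir16-1 alone with the tagged IP. The level of Mir16-1 alone (277 and 402 CPM with the tagged IP) therefore cannot be told apart from such additions, and the 3p strands are what separates the 2 genes.

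The 5' ends also differed by cloning method. With dox and in wildtype cells 97.4 to 100% of the reads of each 5p strand began at the annotated start. With the tagged IP it was 77.9 and 76.1% for miR-15a-5p, 91.3 and 80.3% for miR-15b-5p, 85.6 and 70.7% for miR-16-5p, 79.5 and 76.7% for miR-322-5p and 86.0 and 70.03% for miR-503-5p. The tagged input, made without antibody, had higher means in the same order, at 82.4 ± 8.19, 94 ± 0.709, 85.3 ± 3.13, 86.3 ± 11 and 85.7 ± 20.2%. Tagged IP and tagged input overlapped for every strand except miR-15b-5p. Of miR-16-5p reads with the tagged IP, 5.98 and 17.7% began 1 base late, which shifts the seed by 1 base, and 4.58 and 5.13% began 4 bases late. With dox and in wildtype cells each of these starts held at most 0.199%. Cloning method, sequencing run and preparation cannot be told apart here, and the tagged IP differs from the ligation libraries by the IP as well.

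Untemplated 3' bases and lengths set members apart. miR-503-5p carried an A that its hairpin does not encode on 19.1 and 16.6% of reads with the tagged IP (257 and 271 reads), against 8.57 and 4.17% with the untagged IP (35 and 24 reads). The groups did not overlap (exact permutation p = 0.333, adjusted p = 1). By ligation the A was on 28.7% of miR-503-5p reads with dox (355 reads) and 26.0% in wildtype cells (735 reads). miR-15a-5p had the A on 8.39 and 7.65% with the tagged IP, 3.33% with dox and 3.73% in wildtype cells. On miR-15b-5p it was at most 0.559% in those 4 libraries. Reads of 22 nt were 81.6 and 76.0% of miR-15a-5p with the tagged IP, 44.4% with dox and 35.8% in wildtype cells, where 24 nt was the most frequent length (44.4%).

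Without doxycycline the 5p strands were lower than in wildtype cells. With 1 library for each condition there is no replicate check and no test, and the exact 95% intervals cover counting error only. miR-16-5p had 3.65 CPM without dox (97 reads), against 509 CPM in wildtype cells, a ratio of 0.00718 (0.00582 to 0.00876). miR-15b-5p had 0.490 CPM without dox (13 reads), against 116 CPM in wildtype cells, a ratio of 0.00421 (0.00224 to 0.00721). For miR-15a-5p, with 7 reads without dox, the ratio was 0.00868 (0.00348 to 0.018). miR-503-5p was left with 2 reads and miR-322-5p with 1, against 481 and 220 reads in wildtype cells. The median ratio over hairpins with at least 100 reads in both libraries together was 0.0140. Scaled to hairpin reads, which made up 1.30% of the library without dox and 21.1% in wildtype cells, the ratio was 0.116 for miR-16-5p, 0.0684 for miR-15b-5p and 0.141 for miR-15a-5p, beside a median of 0.227. Of the hairpin reads 25.9% were 20 to 24 nt long without dox, against 89.2% with dox and 91.8% in wildtype cells. Without dox, hairpin scaling thus divides by a pool in which most reads lie outside 20 to 24 nt.

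The 3p strands kept more of their reads. miR-16-1-3p had 40.4 CPM without dox (1071 reads), against 96.4 CPM in wildtype cells, a ratio of 0.418 (0.390 to 0.449). The ratio was 0.307 (0.231 to 0.404) for miR-322-3p, 0.221 (0.153 to 0.313) for miR-16-2-3p and 0.0872 (0.0675 to 0.111) for miR-15b-3p. It was 0.203 (0.0924 to 0.399) for miR-15a-3p and 0.668 (0.289 to 1.46) for miR-503-3p, with 10 and 11 reads without dox. Every 3p interval lay above that of the 5p strand of its hairpin. Of the miR-16-1-3p reads without dox 97.3% began at the annotated start, and 2 of the 10 miR-15a-3p reads did. Scaled to hairpin reads, miR-16-1-3p, miR-322-3p, miR-16-2-3p and miR-15b-3p were higher without dox than in wildtype cells, with ratios of 6.79, 4.99, 3.59 and 1.42. These ratios are not shares of mature-length reads, since 25.9% of hairpin reads without dox were 20 to 24 nt long.

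The 3p strand thus outnumbered the 5p strand without dox in all 5 hairpin sets. Its share was 84.3% for Mir15b without dox, against 20.6% in wildtype cells. For Mir16-1 and Mir16-2 together it was 92.0% without dox, against 16.8% in wildtype cells, and for Mir322 98.5% against 54.3%. For Mir15a it was 58.8% of 17 reads without dox, against 5.77%, and for Mir503 84.6% of 13 reads, against 3.99%. Among 135 hairpins with at least 20 reads on each arm in wildtype cells and 20 in all without dox, shared reads left out, the more abundant arm differed between the 2 libraries in 26.7%. Of the 4 member genes among them it differed for Mir15b and not for Mir16-1, Mir16-2 or Mir322. The 5p reads that Mir16-1 and Mir16-2 share are not in that count. Over 200 hairpins with 20 wildtype reads on each arm, the median ratio to wildtype cells was 0.00693 for the more abundant arm and 0.0590 for the other.

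**Figure D4:**
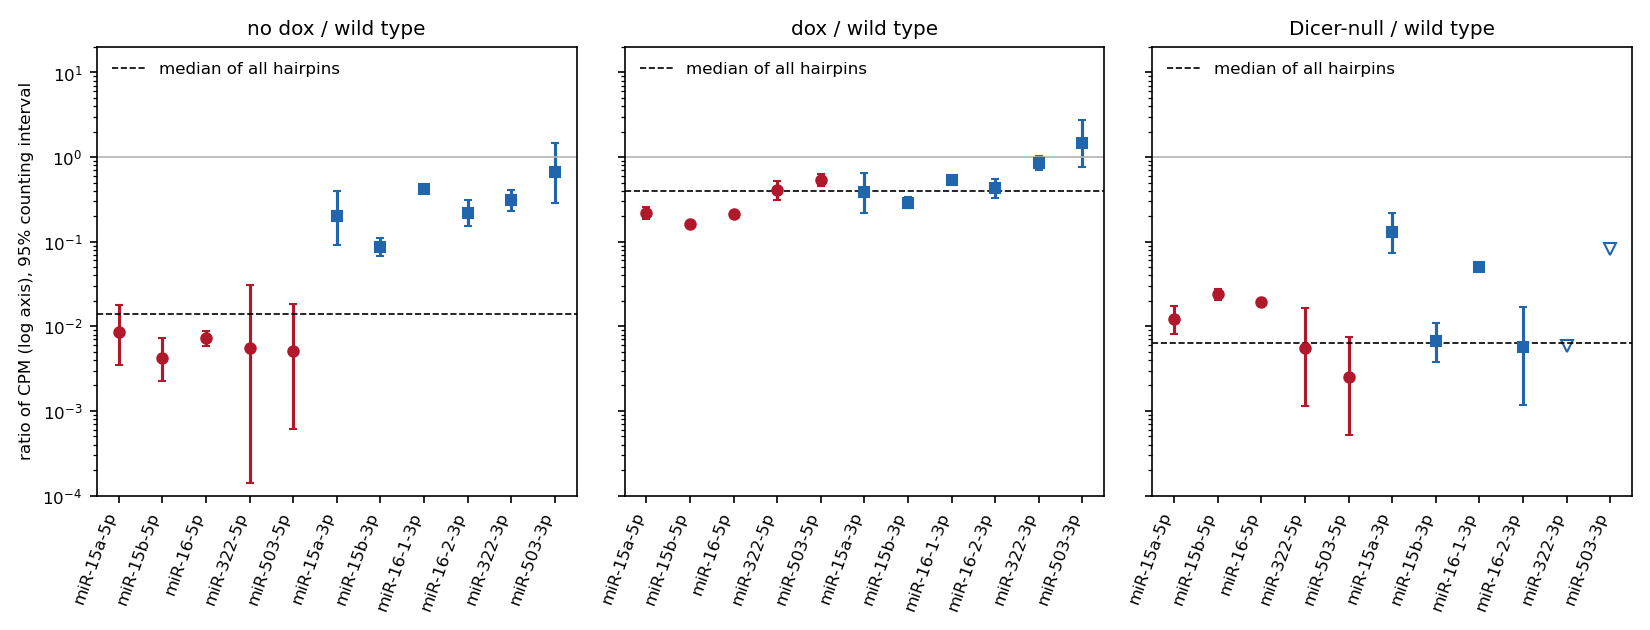
Ratio of CPM to wildtype cells (log axis) of each 5p strand (circles) and 3p strand (squares) in the no-dox, dox and Dicer-null libraries, with exact 95% counting intervals; triangles are upper limits where no read was found, and the dashed line is the median of all hairpins. Without dox the 5p strands lie below 0.0140 and the 3p strands between 0.0872 and 0.668. Many Dicer-null reads of miR-16-5p and miR-15b-5p are longer than the mature strand.

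Per hairpin, 7 of 7 features were at least 2-fold lower without dox than in wildtype cells, against 85.0% of 386 hairpins. By scaling to hairpin reads 3 of 7 were, namely Mir15a (0.322), Mir15b (0.346) and the merged feature (0.111), against 67.4% of hairpins. In that scaling Mir503 had a ratio of 0.512, and Mir16-1 (7.22), Mir16-2 (2.94) and Mir322 (2.75) were higher without dox. With library totals Mir16-1 differed least, with 46.5 CPM without dox and 105 CPM in wildtype cells. Of its 1235 reads without dox, 1071 were from the 3p strand and 162 from the loop.

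With dox, which restores Ago2 in the same line by the labels, the 5p strands were higher. miR-16-5p had 109 CPM with dox, against 3.65 CPM without, a ratio of 29.7 (24.3 to 36.7). The ratio was 38.5 (22.3 to 72.8) for miR-15b-5p and 25.5 (12.1 to 64.2) for miR-15a-5p, beside a median of 29.4 over all hairpins. The 3p strands differed less, with 1.30 (1.20 to 1.40) for miR-16-1-3p, 1.93 (1.30 to 2.91) for miR-16-2-3p, 2.79 (2.10 to 3.75) for miR-322-3p and 3.31 (2.53 to 4.38) for miR-15b-3p. Per hairpin 6 of 7 features were at least 2-fold higher with dox, against 78.3% of 327 hairpins, and Mir16-1 (1.29) was not. By hairpin scaling 2 of 7 were, the merged feature (3.92) and Mir503 (2.28), against 60.2% of hairpins. In that scaling Mir15a had a ratio of 1.47 and Mir15b of 1.12, while Mir16-1 (0.163), Mir16-2 (0.258) and Mir322 (0.486) were lower with dox. The 4 3p strands were also lower with dox than without, with ratios of 0.164, 0.244, 0.353 and 0.419.

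The 5p strands stayed lower with dox than in wildtype cells. miR-15b-5p had 18.9 CPM with dox, against 116 CPM in wildtype cells, a ratio of 0.162 (0.148 to 0.178), and miR-16-5p a ratio of 0.213 (0.205 to 0.222). The X-linked strands came closer, with 0.406 (0.309 to 0.528) for miR-322-5p and 0.533 (0.452 to 0.626) for miR-503-5p, beside a median of 0.400. Per hairpin Mir15a, Mir15b, Mir16-2 and the merged feature, 4 of 7, were at least 2-fold lower with dox, against 57.6% of 396 hairpins. The 3p strands ranged from 0.289 for miR-15b-3p to 0.857 (interval 0.708 to 1.04) for miR-322-3p, and miR-503-3p, on 25 reads with dox and 20 in wildtype cells, had 1.45 (0.773 to 2.75). Scaled to hairpin reads, Mir15a (0.473), Mir15b (0.387) and the merged feature (0.437) were at least 2-fold lower, against 32.3% of hairpins, and Mir16-1, Mir322 and Mir503 were above wildtype cells, with ratios of 1.18, 1.34 and 1.17.

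In Dicer-null cells 6 of 7 features were at least 2-fold lower than in wildtype cells, against 77.9% of 421 hairpins. The merged miR-16 feature had 1.02 CPM in Dicer-null (80 reads), against 505 CPM in wildtype cells, a ratio of 0.00201 (0.0016 to 0.00251), below the median of 0.00643. That feature holds no read that reaches base 24 from the annotated start. With all 5p reads of Mir16-1 and Mir16-2, 784 in Dicer-null, the miR-16-5p ratio was 0.0196 (0.0182 to 0.021), above that median. Mir322 and Mir503 had 3 reads each in Dicer-null, against 481 and 501 in wildtype cells. Mir16-2 was the exception, with 7.24 CPM in Dicer-null (570 reads) and 8.74 CPM in wildtype cells (282 reads), a ratio of 0.828 (0.716 to 0.958), or 12.3 when scaled to hairpin reads. In that scaling 5 of 7 features were at least 2-fold lower, against 68.2% of hairpins, the merged ratio was 0.0299, and Mir16-1 had 0.936 (0.852 to 1.03). From the annotated 5p start, Mir16-1 alone and Mir16-2 alone count only reads that reach base 24. Their wildtype counts thus leave out the 16277 shared reads, while long Dicer-null reads are included. These ratios of Mir16-1 and Mir16-2 therefore compare unlike reads.

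Many of the reads left in Dicer-null were longer than the mature strand. Of the Mir16-2 reads 96.1% began at the annotated 5p start and were 25 nt or longer in Dicer-null, against 5.67% in wildtype cells. Both shares are of the reads of Mir16-2 alone, without the shared miR-16 reads. For Mir15b the share of such reads was 69.7% in Dicer-null, against 0.0212% in wildtype cells, and for Mir15a 20.8% (10 reads), against 2.60%. In both libraries the longest reads were 40 nt. Of the 10 Mir15a reads in Dicer-null 7 had that length, so their full length is not known. The most frequent long reads of Mir16-2 and Mir15b are shown with the bases past the mature end in capitals.
Mir16-2: tagcagcacgtaaatattggcgTAGT
Mir15b: tagcagcacatcatggtttacaTACT
The Mir16-2 read had 309 counts in Dicer-null and 2 in wildtype cells, and the Mir15b read 112 in Dicer-null and 1 in wildtype cells. From the Mir16-1 start 114 reads were 25 nt or longer in Dicer-null, of which 41 were 34 nt and 18 each were 32 and 33 nt. Over all hairpins, 14.0% of reads in Dicer-null and 91.8% in wildtype cells were 20 to 24 nt long.

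**Figure D5:**
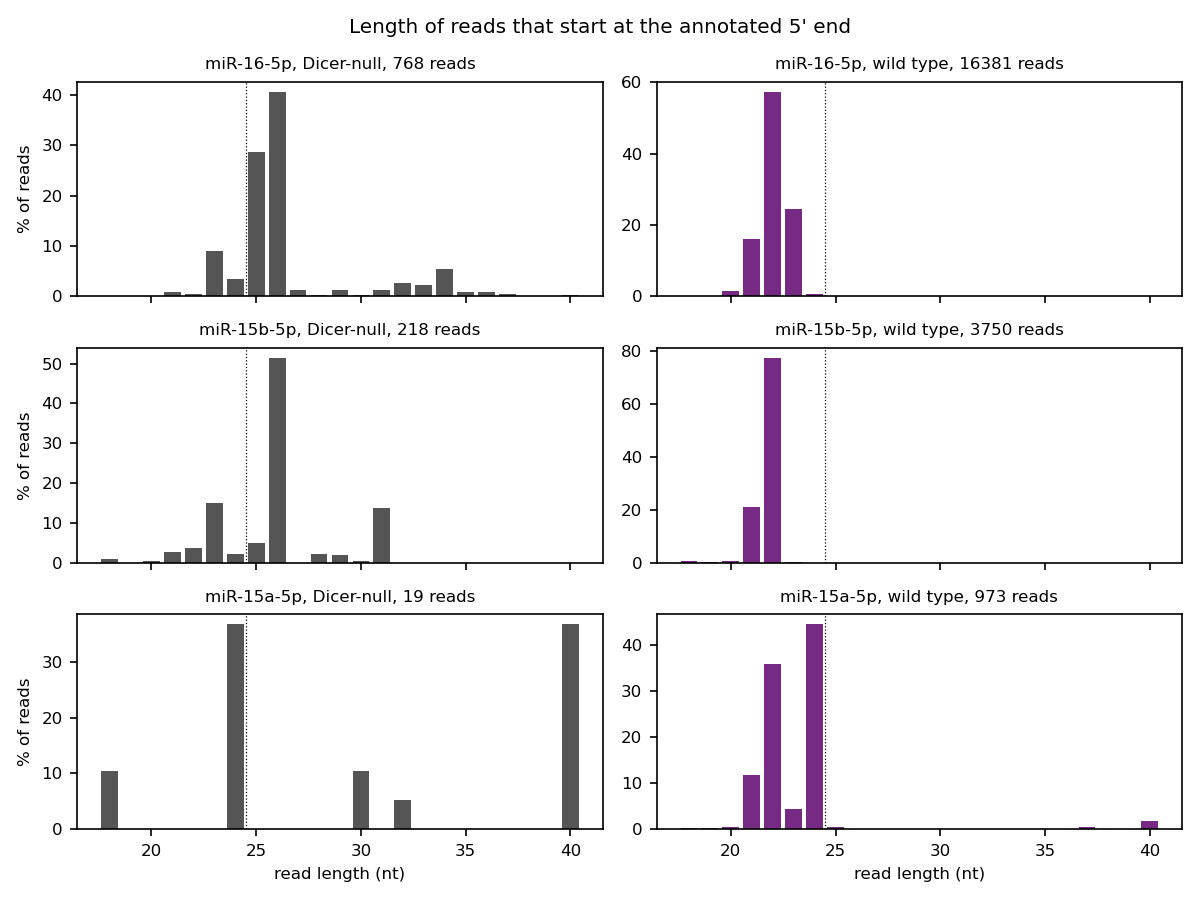
Length (nt) of reads from the annotated 5' end of miR-16-5p, miR-15b-5p and miR-15a-5p, as percent of those reads, in Dicer-null (left) and wildtype (right) cells; the dotted line parts 24 from 25 nt. Reads of miR-16-5p and miR-15b-5p peak at 26 nt in Dicer-null (40.6 and 51.4%) and at 22 nt in wildtype cells (57.3 and 77.3%). No read of these libraries is longer than 40 nt.

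The 3p side of Mir16-1 gave 382 reads in Dicer-null, of which 0.262% began at the annotated start, 47.1% began 1 base earlier and 43.2% were 25 nt or longer. In wildtype cells 90.3% of 3110 reads began at the annotated start, 7.36% began 1 base earlier and 0.257% were 25 nt or longer. The most frequent miR-16-1-3p read carries 1 base past the mature end, in capitals.
miR-16-1-3p: ccagtattgactgtgctgctgaA
It had 0 counts in Dicer-null, which allows up to 0.0381 CPM (3 counts of the library total), and 1060 with dox, 921 without dox and 2320 in wildtype cells.

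Mir16-1 also gave a loop read of 20 nt that fills the space between its mature strands.
Mir16-1 loop: ttaagattctgaaattacct
Allowing 1 base at either end, the loop had 198 reads with dox (7.11 CPM), 162 without dox (6.10 CPM), 0 in Dicer-null and 188 in wildtype cells (5.83 CPM). With library totals the loop was thus at similar levels with and without dox, where miR-16-5p differed 29.7-fold, and it was not detected in Dicer-null. Hairpin reads made up 10.3% of the library with dox and 1.30% without, so as a share of them the loop was higher without dox. By circularization it had 0 to 6 reads. The loops of Mir16-2 and Mir503 had at most 2 reads in any library, and those of the other members are shorter than 18 nt.

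The 2 cloning methods gave different levels for the same line and dose. In TT-FHAgo2 cells at 2.5 µg/mL, miR-16-1-3p had 52.3 CPM by ligation (dox) and 2.94 and 1.99 CPM by circularization (tagged input). miR-503-5p had 7.94 CPM by ligation and 0.468 and 0.269 CPM by circularization. miR-16-5p lay within the circularization values, with 109 CPM by ligation and 197 and 87.6 CPM by circularization. Method, run and preparation cannot be told apart here.

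By cluster and without the shared reads, Mir15b and Mir16-2 stood at 1818 ± 326 CPM with the tagged IP and 35.1 ± 25.5 CPM with its input. Mir15a and Mir16-1 stood at 1019 ± 66.2 CPM with the tagged IP and 32.5 ± 15.5 CPM with its input, and Mir322 and Mir503 at 67.7 ± 9.65 CPM and 2.10 ± 0.996 CPM. The whole family made up 1.37 and 1.65% of hairpin reads with the tagged IP, 1.21 and 0.931% with the untagged IP, 0.925 and 0.656% with the tagged input and 0.873 and 0.258% with the untagged input. By ligation it was 0.218% with dox, 0.449% without dox, 0.130% in Dicer-null and 0.392% in wildtype cells. Without the shared reads, the Mir15a and Mir16-1 cluster made up 0.363% of hairpin reads without dox, against 0.0649% in wildtype cells. The shared miR-16 reads left out of it made up 0.0267% without dox and 0.239% in wildtype cells.

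Other annotated miRNAs with the AGCAGCA seed are Mir195a, Mir497, Mir195b, Mir6342, Mir6353 and Mir6419, and the last 4 had 0 reads in all libraries. Mir195a held 472 and 499.6 CPM with the tagged IP, 71.3 and 65.6 CPM with the untagged IP, 15.9 and 5.06 CPM with the tagged input and 13.4 and 3.32 CPM with the untagged input. Mir497 held 187 and 169.5 CPM with the tagged IP, 32.0 and 26.8 CPM with the untagged IP, 12.8 and 3.98 CPM with the tagged input and 10.9 and 4.91 CPM with the untagged input. Both ranked between Mir15a and Mir322 with the tagged IP. Against the tagged input Mir195a rose by 5.53 ± 0.85 (edgeR adjusted p = 1.23e-05) and Mir497 by 4.41 ± 0.77 (adjusted p = 3.4e-05) on the log2 scale.

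On the X chromosome Mir351, Mir542, Mir450-1, Mir450-2 and Mir450b follow Mir503 on the same strand. Against the tagged input, Mir450b rose by 6.36 ± 0.82 with the tagged IP (edgeR adjusted p = 7.75e-06), beside 5.03 ± 0.75 for Mir322 (adjusted p = 1.08e-05). Mir351 rose by 4.86, Mir542 by 4.55 and the reads of Mir450-2 alone by 4.54. Mir450-1 alone had 29 and 58 reads with the tagged IP and 0 with the tagged input. Most reads of these 2 genes matched both hairpins. That merged feature held 33.1 ± 2.99 CPM with the tagged IP and 1.42 ± 0.259 CPM with the tagged input, a rise of 4.54 ± 0.77 (edgeR adjusted p = 2.54e-05). In wildtype cells Mir542 had 107 CPM, Mir450b 81.8 CPM and the merged Mir450-1 and Mir450-2 feature 76.3 CPM, beside 14.9 CPM for Mir322 and 15.5 CPM for Mir503. Without dox Mir542 was left with 12 reads, the merged feature with 15 and Mir450b with 9.

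Among 289 hairpins with a mean of at least 10 CPM, the ones whose log2 share of hairpin reads ran most alike with each cluster over the 12 libraries were named by Pearson's r, as a description. For Mir15a and Mir16-1 they were Mir195a (0.756), Mir667 (0.738) and Mir350 (0.706). For Mir15b and Mir16-2 they were Mir466i (0.933), Mir34a (0.843) and Mir674 (0.818). For Mir322 and Mir503 they were Mir130b (0.959), Mir320 (0.95) and Mir27a (0.945), as all 12 libraries gave them. Without the Dicer-null library Mir667 (0.702) led Mir195a (0.688) and Mir350 (0.678) for the first cluster, Mir466i (0.977), Mir466b-3 (0.934) and Mir30b (0.932) led for the second, and Mir320 (0.884), Mir708 (0.875) and Mir299a (0.858) for the third. The cluster sums leave out the shared miR-16 reads, and that of Mir15a and Mir16-1 keeps the reads of Mir16-1 alone with their limit. Over the 12 libraries those reads ran most alike with Mir466d/Mir466h (0.986), Mir26b (0.986) and Mir23b (0.977). Without the Dicer-null library Mir26b, Mir466d/Mir466h and the merged Mir466f-1 to Mir466f-4 feature had 0.971 each. The libraries differ in cloning method, antibody and genotype at once.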

How the data were processed

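RNA from Trizol extracts was size-selected on a gel, per the labels' protocols. The deposited files hold raw read counts for each distinct sequence, not normalised by the authors. Trimming, alignment and genome build are not given in the sources used here. Reads of 18 nt or more were matched exactly and in sense to the miRNA hairpins of GENCODE vM21, and CPM used the total of each file. The 8 circularization libraries entered a single model in edgeR 4.0.16 under R 4.3.3 (glmQLFit and glmQLFTest, library totals, filterByExpr, Benjamini-Hochberg over all hairpins or all arms). DESeq2 1.42.0 was an alternative. An arm is the side of the hairpin that holds the midpoint of the read, and loop reads were removed from the 3p strands of Mir16-1 and Mir16-2 except in the fitted arms, where they number 0 to 6. Ratios of single libraries have exact (Clopper-Pearson) 95% intervals. Exact permutation tests used scipy 1.17.1. The edgeR step was tested on simulated counts. Reads carry no molecular identifiers, so PCR copies count as reads. The members and lists were chosen with earlier results of these data known. Named were all members with their arms, the miRNAs that share their seeds, the neighbours of Mir503 and the 3 hairpins most like each cluster.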

Additional observations from a re-analysis of the deposited data

Results flagged for a closer look

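The gain of the IP over its input was larger in the tagged than in the untagged line for all 7 features, by the edgeR test of that difference. The same held for 55.2% of the 698 hairpins tested. On the log2 scale the tagged gain minus the untagged gain was 2.77 for Mir15a, 2.79 for Mir15b, 2.73 for Mir16-1, 2.67 for the merged miR-16 feature, 2.34 for Mir16-2, 3.13 for Mir322 and 3.97 for Mir503, beside a median of 2.84 over all hairpins. With TMM factors, DESeq2 or scaling to hairpin reads none of the 7 was called. The edgeR test called none of the 7 without replicate 1 or 2 of the tagged IP or replicate 2 of the tagged input. Leaving out each library in turn, the difference ranged from 1.03 to 4.09 for Mir15b and from 1.31 to 3.42 for the merged feature.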

How the results depend on the processing

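Hairpins called by edgeR with library totals, and then with TMM factors, with DESeq2 and with scaling to hairpin reads, numbered 603, 99, 103 and 122 between tagged IP and untagged IP, 639, 157, 169 and 189 between tagged IP and tagged input, 359, 56, 84 and 51 between untagged IP and untagged input, and 416, 77, 96 and 85 for the difference of the gains. Arms with library totals, TMM and hairpin scaling numbered 804, 110 and 135 between the IPs and 862, 202 and 250 against the tagged input. Scaled to hairpin reads, 128 hairpins were at least 2-fold lower with dox than in wildtype cells, and 228 with library totals. Leaving out each library in turn, the calls ranged from 418 to 652, 624 to 718, 13 to 391 and 0 to 421 in the same 4 hairpin contrasts, and from 0 to 873 and 835 to 959 in the 2 arm contrasts. Between the inputs 0 were called under every alternative.

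Some log2 values changed sign with TMM, DESeq2 and hairpin scaling in turn: Mir16-2 against the tagged input (-0.672, -0.79, -0.575), Mir16-2 (-0.174, -0.187, -0.104) and Mir503 (-0.854, -0.866, -0.715) in the untagged line, and the difference of the gains for the merged feature (-0.131, -0.239, -0.0431) and Mir16-2 (-0.499, -0.604, -0.471). With DESeq2 alone that difference changed sign for Mir15a (-0.0484), Mir15b (-0.0135) and Mir16-1 (-0.096). Between the IPs, TMM gave -0.0266 for miR-16-1-3p, -0.076 for miR-503-3p and -0.119 for miR-16-2-3p (-0.0826 by hairpin scaling). Against the tagged input TMM and hairpin scaling gave -2.57 and -2.55 for miR-15a-3p, -3.01 and -2.9 for miR-16-1-3p and -1.33 and -1.27 for miR-16-2-3p. Scaled to hairpin reads, single-library ratios crossed 1 for dox against no dox in Mir16-1 (0.163), Mir16-2 (0.258), Mir322 (0.486), miR-15b-3p (0.419), miR-16-1-3p (0.164), miR-16-2-3p (0.244) and miR-322-3p (0.353). For no dox against wildtype cells they crossed it in Mir16-1 (7.22), Mir16-2 (2.94), Mir322 (2.75), miR-15b-3p (1.42), miR-16-1-3p (6.79), miR-16-2-3p (3.59) and miR-322-3p (4.99). For dox against wildtype cells they did in Mir16-1 (1.18), Mir322 (1.34), Mir503 (1.17), miR-16-1-3p (1.11), miR-322-3p (1.76) and miR-503-5p (1.09), and for Dicer-null against wildtype cells in Mir16-2 (12.3). Scaling moved all hairpins at once, and the cause of single sign changes was not tested.

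The replicate block, with the title code as a term, gave 629, 645, 409, 0 and 459 calls in the 5 hairpin contrasts. Same-numbered libraries had correlations of their deviations from 0.0746 to 0.699 over 284 hairpins, and the code is all that the labels share. Members with few reads, such as Mir503 in the inputs, are limited by depth.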
